A study of Mus musculus with 15 samples.

Results

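The interleukin-10 (IL-10) and TGF-beta pathways were read from 10 genes in sorted mouse gut macrophages and blood monocytes: *Il10*, *Il10ra*, *Il10rb*, *Socs3*, *Nfkbiz*, *Tgfb1*, *Tgfbr1*, *Tgfbr2*, *Smad3*, and *Smad7*. The genes were fixed by symbol and matched to Ensembl identifiers in the deposited table of raw counts. They are 10 of the 19456 genes in that table, and all 10 were among the 15802 genes left after edgeR's filter on low counts. Bulk RNA sequencing was done on 15 libraries from adult male wild type C57BL/6 mice with no treatment or deletion in any group. Ly6Chi monocytes, the blood precursors of gut macrophages, gave 3 libraries. Macrophages of the small intestine were divided by FACS on the surface proteins Tim-4 and CD4 into cells with neither (Tim-4-CD4-), cells with CD4 alone (Tim-4-CD4+), and cells with both (Tim-4+CD4+), and each subset gave 4 libraries. All macrophages were gated as CD64+ cells without Ly6C. The first subset is called CD4- and the last Tim-4+ below, and values of the 3 subsets are always given in this order. Each library was a pool of cells from 3 mice, except for monocyte replicate 2, which was a pool from 4 mice. Macrophages were sorted on 4 occasions and monocytes on 3, so the spread between libraries is one between pools and not between single animals. Which subset libraries came from the same mice is not given in the sources used here.

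IL-10 is the main restraint on gut macrophages. It binds a receptor of IL-10RA and IL-10RB chains, JAK1 and TYK2 then phosphorylate STAT3, and STAT3 raises genes such as *Socs3* and lowers many inflammatory cytokines. TGF-beta is secreted in a latent form, is freed by integrins and proteases, and signals through a receptor of TGFBR2 and TGFBR1 chains to SMAD2 and SMAD3, with SMAD7 as a feedback inhibitor. In mice, loss of the IL-10 receptor from gut macrophages leads to colitis, and TGF-beta is known to shape the differentiation of monocytes in the gut wall.

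The total count on genes was between 39388763 and 151510641 per library, with a median of 63249039, and 3 counts correspond to between 0.0203 and 0.0776 CPM. CPM is the count scaled to 1000000 reads of the TMM-normalized library. The defining markers followed the labels: *Ly6c2*, chosen with its values known, was between 820.0 and 1545 CPM in monocytes and at most 3.46 CPM in any macrophage library, *Timd4* was between 336 and 390 CPM in Tim-4+ macrophages and at most 4.47 CPM in the other libraries, and *Cd4* was at least 484 CPM in both CD4+ subsets and at most 39.2 CPM elsewhere. Of the 6 monocyte markers, 3 fell and 0 rose from CD4- macrophages to each CD4+ subset (edgeR, adjusted p under 0.05). *Ccr2* was between 510 and 759 CPM in CD4-, 65.2 and 113 CPM in Tim-4-CD4+, and 4.84 and 15.8 CPM in Tim-4+ macrophages. *Plac8* was between 40.2 and 83.1 CPM in CD4- and at most 11.7 CPM in the CD4+ subsets. The paper proposes that only the CD4- subset may hold some less mature cells. Their part in the differences from CD4- macrophages was not tested. Transcripts of other cell types were present in the macrophage libraries. The 8 B and plasma cell markers summed to between 245 and 437 CPM in macrophages and to between 10.4 and 12.8 CPM in monocytes. Most of this in macrophages was *Jchain*, at between 189 and 369 CPM, and the part of these cells in the results was not tested. The 10 T cell markers, of interest because T cells also make *Il10*, summed to between 9.92 and 24.3 CPM in macrophages and to between 1.21 and 3.02 CPM in monocytes. *Cd3e*, which defines T cells, was at most 2.95 CPM, and *Foxp3*, which defines regulatory T cells, was at most 0.582 CPM and at 0 in some CD4- libraries and every monocyte library.

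The first question was whether these genes differ between circulating monocytes and each macrophage subset. Of the 10 genes, 9 passed the test in each of the 3 subsets, with 8 higher than in monocytes (*Il10*, *Il10ra*, *Il10rb*, *Socs3*, *Nfkbiz*, *Tgfbr1*, *Tgfbr2*, and *Smad7*) and *Smad3* lower. *Tgfb1* did not pass in any of them. These comparisons were tested with edgeR's quasi-likelihood test with Benjamini-Hochberg adjustment over all 15802 genes and a threshold of 0.05. They separate most of the transcriptome, with 65.4, 69.8, and 70.9% of all genes called in the 3 subsets, made up of 37.3, 39.1, and 39.5% higher and 28.1, 30.7, and 31.3% lower. The libraries of monocytes and the subset did not overlap for 10, 9, and 9 of the 10 genes, where 67.6, 70.1, and 68.7% of all genes did not overlap. The 3 comparisons share the same 3 monocyte libraries, so a gene called in all of them is not 3 independent results. Monocytes came from blood, whereas macrophages were released from tissue with EDTA and a liberase digestion at body temperature, so cell type, tissue, and preparation cannot be told apart in these comparisons. In bulk samples, fewer cells that express a gene and less RNA per cell cannot be told apart either.

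The plots of CPM by library show each gene in the 4 populations. Within the gut, the differences were fewer: *Socs3* and *Nfkbiz* were lower in both CD4+ subsets than in CD4- macrophages, and *Il10* was higher in Tim-4+ than in CD4- macrophages.

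**Figure D1:**
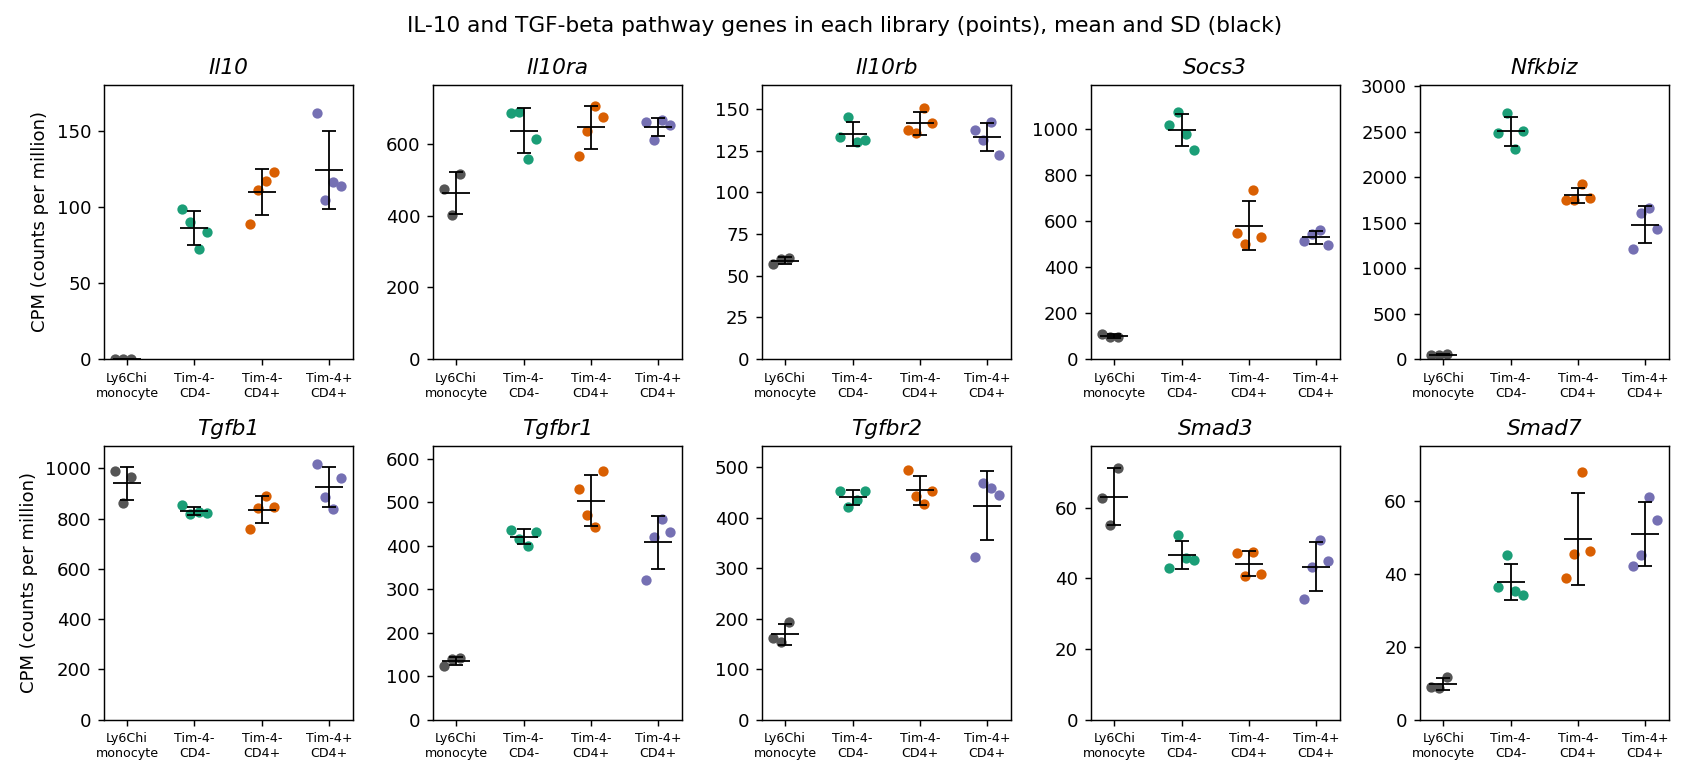
CPM of each of the 10 genes (y axis, linear from 0) in the 4 populations (x axis), with 1 point per library and the mean and SD of each population in black (n = 3 for monocytes and 4 for each subset). *Il10* is near 0 in monocytes and *Socs3* and *Nfkbiz* are highest in CD4- macrophages, while *Il10ra*, *Il10rb*, and *Tgfbr2* lie at similar heights in the 3 subsets.

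*Il10* (ENSMUSG00000016529.5), the cytokine itself, is a plus-strand gene of chromosome 1, between positions 131019845 and 131024974 of GRCm38, the build of all gene positions given here. Monocyte replicates 1 to 3 held 9, 8, and 1 reads of *Il10*, which is 0.0638, 0.0778, and 0.0186 CPM. Its level was 99, 90.0, 72.5 and 83.5 CPM in CD4- replicates 1 to 4, 88.8, 111, 118 and 124 CPM in Tim-4-CD4+, and 162, 105, 117 and 114 CPM in Tim-4+ macrophages. Every macrophage library was therefore far above every monocyte library, and within the gut the ranges of the Tim-4-CD4+ libraries overlapped those of both other subsets. Only the Tim-4+ libraries lay wholly above the CD4- libraries, with replicate 1 the highest of all.

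With 18 reads pooled over the monocyte libraries, the mean CPM of *Il10* in macrophages was 1427 times that in monocytes for CD4- (95% exact Poisson interval of the pooled monocyte count 903 to 2408), 1825 times for Tim-4-CD4+ (1155 to 3079), and 2058 times for Tim-4+ macrophages (1302 to 3472). These intervals cover counting error only. From CD4- to Tim-4+ macrophages, *Il10* rose by 0.53 on the log2 scale (SE 0.15, adjusted p = 0.0141, edgeR), a 1.44-fold difference. This call rests in part on CD4- replicate 3, the lowest library of its subset: without it the log2 fold change was 0.46 with an adjusted p of 0.0533. It passed without any other single library, but the log2 fold change was lowest, at 0.376, without Tim-4+ replicate 1. Over all genes tested, deviations of CD4- replicate 3 from its subset mean correlated most with those of Tim-4-CD4+ replicate 1 (r = 0.136). In Tim-4+ macrophages they correlated most with those of replicate 2 (r = 0.135). Both of these libraries also had the lowest *Il10* of their subsets, and whether they shared a sort with CD4- replicate 3 was not tested. Within its subset, CD4- replicate 3 also had the highest sum of epithelial markers (26.6 CPM, with the others between 9.13 and 14.6 CPM), of B and plasma cell markers (433 CPM, others 289 to 384 CPM), and of dendritic cell markers (178 CPM, others 116 to 168 CPM), and their part in the result was not tested. The difference from CD4- to Tim-4-CD4+ macrophages was 0.35 (95% interval 0.07 to 0.64, adjusted p = 0.148), and between the CD4+ subsets it was 0.17 (95% interval -0.11 to 0.46, adjusted p = 0.611), so neither passed. The sum of the 10 T cell markers was between 12.6 and 17.2 CPM in CD4-, between 15 and 24.3 CPM in Tim-4-CD4+, and between 9.92 and 14.7 CPM in Tim-4+ macrophages. The markers in this sum differed in direction: *Il7r* was at 7.31, 5.90, and 2.63 CPM on average in the 3 subsets, and *Cd3e* at 0.787, 2.44, and 1.45 CPM. From CD4- to Tim-4+ macrophages, 0 of the 10 markers rose and 1 fell past the threshold, with a median of 0.47 on the log2 scale. The part of T cells in the level of *Il10* was not tested. In the paper, IL-10 protein released in overnight cultures of these sorted subsets did not differ between them. That is a measure of cultured cells and not of RNA at sorting.

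The receptor chains rose from monocytes to macrophages and then stayed within the spread of the libraries. *Il10ra* (ENSMUSG00000032089.16, chromosome 9 from 45253837 to 45269149, minus strand) encodes the chain that binds IL-10. Its CPM was 474, 401 and 515 in monocytes, 688, 688, 559.6 and 614 in CD4-, 566, 638, 705 and 676 in Tim-4-CD4+, and 660.5, 611, 667 and 654 in Tim-4+ macrophages. All macrophage libraries were above all monocyte libraries and the 3 subsets overlapped. The rise from monocytes was 0.46, 0.48, and 0.48 on the log2 scale (each SE 0.11, adjusted p = 0.00124, 0.000784, and 0.000702 from edgeR). Between subsets, the differences were 0.02, 0.02, and 0.00 on the log2 scale, and the 95% interval for Tim-4+ against CD4- macrophages was -0.17 to 0.21.

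*Il10rb* (ENSMUSG00000022969.13, chromosome 16 from 91406164 to 91425834, plus strand) encodes the signaling chain that the IL-10 receptor shares with receptors of related cytokines. It was at 56.8, 59.8 and 60.4 CPM in monocytes, and all 12 macrophage libraries were higher, between 123 and 151 CPM. The means were 135 ± 7.06, 141 ± 6.62, and 133 ± 8.33 CPM (SD, n = 4) in the 3 subsets, and their ranges overlapped. The rise from monocytes was 1.20, 1.26, and 1.18 on the log2 scale (each SE 0.08, adjusted p of 1.30e-09 or less). Per kb of exon, the ratio of *Il10ra* to *Il10rb* was between 7.30 and 9.29 in monocytes and between 4.49 and 5.80 in macrophages, because the shared chain rose by more than the binding chain.

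*Socs3* (ENSMUSG00000053113.3, chromosome 11 from 117966079 to 117970047, minus strand) encodes an inhibitor of cytokine receptor signaling that STAT3 induces, and it blocks signals of the IL-6 family more than those of IL-10. Its promoter is shown because *Socs3* is a direct target of STAT3. The sequence is the 250 bases before the start that RefSeq gives on GRCm38.p6, chr11:117969367-117969616, read 5′ to 3′ on the minus strand, which is the strand of the gene. This start lies inside the wider GENCODE extent of the gene given above. Capitals mark the only match to the STAT motif TTCNNNGAA, which reads the same on both strands, at 154 bases before the start.
Socs3 promoter: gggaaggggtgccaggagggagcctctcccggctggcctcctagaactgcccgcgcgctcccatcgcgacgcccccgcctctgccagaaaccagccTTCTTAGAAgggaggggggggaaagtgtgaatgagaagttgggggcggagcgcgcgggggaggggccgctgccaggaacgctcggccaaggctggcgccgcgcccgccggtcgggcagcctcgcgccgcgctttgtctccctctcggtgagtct
This 9-base motif was found in 7.02% of 32851 RefSeq mouse promoters of the same length. A match is a description of the sequence and not evidence of binding.

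*Socs3* was at 109, 93.6 and 95.2 CPM in monocytes, 1015, 1074, 976 and 907 CPM in CD4-, 548, 499, 736 and 531 CPM in Tim-4-CD4+, and 513, 544, 561 and 493 CPM in Tim-4+ macrophages. The 4 CD4- libraries were the highest and did not overlap any other group, and the monocytes were the lowest, also without overlap. The CD4+ subsets overlapped each other, with Tim-4-CD4+ replicate 3 above the rest. Against monocytes, *Socs3* rose by 3.32, 2.54, and 2.41 on the log2 scale (SE 0.13 to 0.14, adjusted p of 4.60e-11 or less from edgeR). Compared with CD4- macrophages, it fell by 0.78 on the log2 scale in Tim-4-CD4+ (SE 0.11, adjusted p = 2.07e-04, 1.72-fold lower) and by 0.91 in Tim-4+ macrophages (SE 0.11, adjusted p = 1.43e-05, 1.88-fold lower). Between the CD4+ subsets the difference was -0.13 with a 95% interval of -0.35 to 0.08 (adjusted p = 0.611).

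*Nfkbiz* (ENSMUSG00000035356.16, chromosome 16 from 55811375 to 55838899, minus strand) encodes IkappaB-zeta, a nuclear member of the IkappaB family that is needed for induction of *Il6* and other secondary response genes. It was at 41.2, 47.6 and 52.9 CPM in monocytes, 2483, 2712, 2316 and 2506 CPM in CD4-, 1755, 1747, 1924 and 1772 CPM in Tim-4-CD4+, and 1213, 1609, 1663 and 1426 CPM in Tim-4+ macrophages. No pair of the 4 populations overlapped, and the order was CD4-, Tim-4-CD4+, Tim-4+, monocytes. The rise from monocytes was 5.73, 5.25, and 4.97 on the log2 scale (each SE 0.14, adjusted p of 1.06e-14 or less from edgeR), and the means in macrophages were 53.1, 38.1, and 31.3 times that in monocytes. From CD4- macrophages, *Nfkbiz* fell by 0.48 on the log2 scale to Tim-4-CD4+ (SE 0.10, adjusted p = 0.00604) and by 0.76 to Tim-4+ macrophages (SE 0.10, adjusted p = 4.31e-05). The step between the CD4+ subsets, -0.28 with a 95% interval of -0.49 to -0.08, did not pass with edgeR (adjusted p = 0.185).

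*Tgfb1* (ENSMUSG00000002603.15, chromosome 7 from 25687002 to 25705077, plus strand) encodes the main TGF-beta ligand of immune cells. Its CPM was 989.9, 864 and 966 in monocytes, 853, 819, 828 and 824 in CD4-, 759.9, 843, 889 and 847 in Tim-4-CD4+, and 1016, 887, 836 and 959.7 in Tim-4+ macrophages. The CD4- libraries were all just below the monocyte libraries, whereas the other subsets overlapped them. None of the 6 comparisons passed: against monocytes the log2 fold changes were -0.18 (95% interval -0.35 to -0.01, adjusted p = 0.0832), -0.17 (-0.34 to -0.00, adjusted p = 0.0896), and -0.02 (-0.19 to 0.15, adjusted p = 0.823) in the order of the subsets above. The last of these was above 0 under upper-quartile normalization (0.09) and other scalings, so no direction is given for it. The intervals of the first and second subset are normal approximations and exclude 0, whereas the unadjusted p was 0.0578 and 0.066 (edgeR). Per kb of exon, *Tgfb1* was the most abundant of the 10 genes in monocytes, at 186 CPM per kb, above 98.7% of 15782 genes with a length.

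The TGF-beta receptor chains both rose from monocytes to every subset. *Tgfbr1* (ENSMUSG00000007613.15, chromosome 4 from 47353222 to 47414931, plus strand), the chain that phosphorylates SMAD2 and SMAD3, was at 124, 139 and 141 CPM in monocytes, 437, 415, 399 and 431 in CD4-, 531, 469.5, 443 and 572 in Tim-4-CD4+, and 321, 419.8, 461 and 431 in Tim-4+ macrophages. Monocytes lay below all other libraries, the Tim-4-CD4+ libraries lay just above the CD4- libraries, and Tim-4+ replicate 1 was the lowest macrophage library. The rise from monocytes was 1.64, 1.91, and 1.60 on the log2 scale (each SE 0.12, adjusted p of 5.15e-09 or less from edgeR). From CD4- to Tim-4-CD4+ macrophages the difference was 0.26 with a 95% interval of 0.05 to 0.47 and an adjusted p of 0.157. It passed only without Tim-4+ replicate 1 (0.26, adjusted p = 0.0435 from edgeR), among the alternatives run. That library is in neither group compared and enters only through the shared fit. The SE was 0.109 with it and 0.082 without it.

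*Tgfbr2* (ENSMUSG00000032440.12, chromosome 9 from 116084293 to 116175360, minus strand), the chain that binds the ligand, was at 161, 153 and 193 CPM in monocytes. It was at 453, 422, 435 and 452 CPM in CD4-, 495, 443, 426 and 453 CPM in Tim-4-CD4+, and 323, 469, 459.6 and 444 CPM in Tim-4+ macrophages. The subsets overlapped one another above the monocytes, again with Tim-4+ replicate 1 lowest of the macrophage libraries. The rise from monocytes was 1.38, 1.43, and 1.33 on the log2 scale (each SE 0.12, adjusted p of 5.90e-08 or less). Between subsets, the largest difference was -0.10, with a 95% interval of -0.32 to 0.12. Per kb of exon, *Tgfbr1* over *Tgfbr2* was between 0.915 and 1.14 in monocytes, between 1.15 and 1.23 in CD4-, between 1.30 and 1.58 in Tim-4-CD4+, and between 1.12 and 1.26 in Tim-4+ macrophages.

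The promoters of both receptor chains are shown because the chains rose together from monocytes. Each is the 250 bases before the RefSeq start on GRCm38.p6, chr4:47352972-47353221 on the plus strand for the upstream start of *Tgfbr1* and chr9:116175364-116175613 on the minus strand for *Tgfbr2*, both read on the strand of the gene. Capitals mark the SMAD motif CAGAC, which was searched on both strands.
Tgfbr1 promoter: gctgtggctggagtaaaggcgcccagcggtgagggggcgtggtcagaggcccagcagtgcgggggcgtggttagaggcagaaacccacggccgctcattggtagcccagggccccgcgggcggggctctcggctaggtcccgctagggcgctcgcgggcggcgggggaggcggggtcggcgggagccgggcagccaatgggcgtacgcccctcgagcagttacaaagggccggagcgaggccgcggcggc
Tgfbr2 promoter: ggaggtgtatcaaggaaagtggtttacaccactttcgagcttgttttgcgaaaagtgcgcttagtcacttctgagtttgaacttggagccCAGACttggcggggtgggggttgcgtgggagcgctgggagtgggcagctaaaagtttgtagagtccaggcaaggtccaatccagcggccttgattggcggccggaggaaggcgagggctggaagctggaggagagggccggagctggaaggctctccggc
The *Tgfbr2* window held 1 match, at 160 bases before the start, and the *Tgfbr1* window shown held none. RefSeq gives a second, downstream start of *Tgfbr1*, whose window (chr4:47385966-47386215, plus strand, not shown) held 1 match, at 203 bases before that start. The same 5 letters were found in 42.2% of the 32851 promoters, and G and C made up 74.8% of the *Tgfbr1* and 58.4% of the *Tgfbr2* window.

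*Smad3* and *Smad7*, which carry and restrain the signal, moved in opposite directions from monocytes. *Smad3* (ENSMUSG00000032402.12, chromosome 9 from 63646767 to 63757994, minus strand), the transducer phosphorylated by TGFBR1, was at 62.8, 55 and 71.2 CPM in monocytes, 42.9, 52.3, 45.8 and 45.2 CPM in CD4-, 47, 40.7, 47.4 and 41.3 CPM in Tim-4-CD4+, and 34.1, 43.1, 50.9 and 44.9 CPM in Tim-4+ macrophages. All macrophage libraries were below all monocyte libraries and overlapped one another. *Smad3* fell from monocytes by 0.44, 0.51, and 0.54 on the log2 scale (each SE 0.12, adjusted p = 0.00553, 0.00151, and 0.000924 from edgeR). The first of these calls was lost without monocyte replicate 3, the highest library, at -0.32 and an adjusted p of 0.0513.

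*Smad7* (ENSMUSG00000025880.11), the inhibitor that blocks and degrades TGFBR1, was at 8.93, 8.71 and 11.8 CPM in monocytes. It was at 36.3, 45, 35.4 and 34.1 CPM in CD4-, 38.8, 45.3, 67.8 and 46.1 CPM in Tim-4-CD4+, and 42.2, 45.1, 61 and 54.8 CPM in Tim-4+ macrophages. Monocytes were lowest without overlap, and the subsets overlapped, with Tim-4-CD4+ replicate 3 the highest library. The rise was 1.95, 2.34, and 2.38 on the log2 scale (each SE 0.19, adjusted p of 1.45e-07 or less from edgeR). From CD4- to Tim-4+ macrophages, *Smad7* differed by 0.43 (95% interval 0.10 to 0.75), which did not pass in the fit over all libraries (adjusted p = 0.0723). It passed with DESeq2 (0.45, adjusted p = 0.0411), with upper-quartile scaling (0.48, adjusted p = 0.042), and with only these 2 populations fitted (0.44, adjusted p = 0.0335). Per kb of exon, *Smad7* over *Smad3* was between 0.174 and 0.204 in monocytes and between 0.924 and 1.75 in macrophages, where the lowest, median, and highest ratios were 0.924, 0.992, and 1.05 in CD4-, 1.01, 1.37, and 1.75 in Tim-4-CD4+, and 1.28, 1.48, and 1.52 in Tim-4+ macrophages.

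Between genes, levels were compared per kb of exon. In CD4- macrophages the order was *Nfkbiz* (499 CPM per kb), *Socs3* (344), *Il10ra* (182), *Tgfb1* (165), *Il10* (65.8), *Tgfbr1* (64.4), *Tgfbr2* (53.8), *Il10rb* (35.5), *Smad3* (8.40), and *Smad7* (8.33). The last pair, and *Il10ra* with *Tgfb1*, and *Il10* with *Tgfbr1*, overlapped from library to library. In Tim-4+ macrophages *Nfkbiz* was again first at 294 CPM per kb, and *Il10ra* (185), *Tgfb1* (183), and *Socs3* (183) followed within each other's spread. *Nfkbiz* was above 99.2% of genes or more in every macrophage subset and above 73.0% in monocytes, and *Il10* was above 95.9% of genes or more in macrophages and above 18.2% in monocytes.

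**Figure D2:**
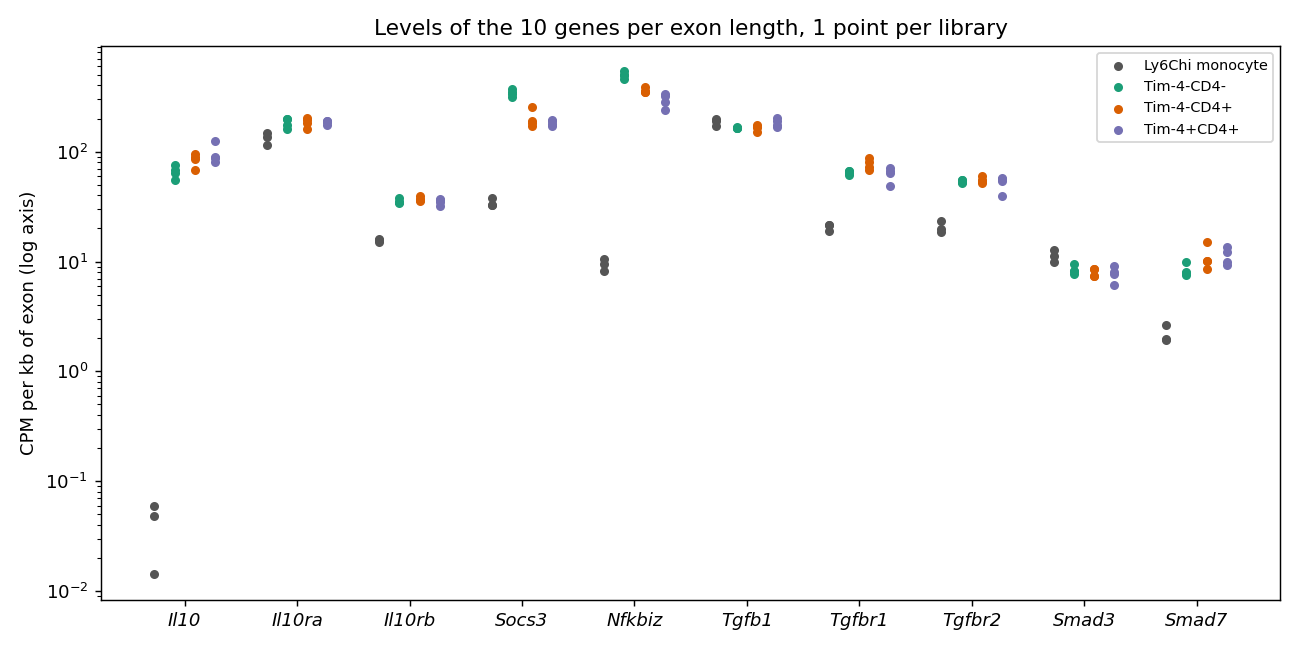
CPM per kb of merged exon (y axis, log scale) of the 10 genes (x axis), with 1 point per library and colors for the 4 populations. *Il10* spans the widest range, from under 0.1 CPM per kb in monocytes to between 55.4 and 124 CPM per kb in macrophages, while *Tgfb1* and *Il10ra* lie above 100 CPM per kb in every library.

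The second question was how the genes differ among the gut subsets. From CD4- to Tim-4-CD4+ macrophages, 2 of the 10 genes passed, both lower, where 10.1% of all genes passed (4.52% higher and 5.53% lower). From CD4- to Tim-4+ macrophages, 3 of 10 passed, with 1 higher and 2 lower, where 23.1% of all genes passed (11.3% higher and 11.9% lower). Between Tim-4-CD4+ and Tim-4+ macrophages, 0 of 10 passed with edgeR's quasi-likelihood test and 0 with DESeq2, where 3.41% of all genes passed with edgeR (2.07% higher and 1.34% lower). At an unadjusted p under 0.05 with edgeR, the counts were 5, 4, and 2, the last being *Tgfbr1* and *Nfkbiz*. The share of all genes at an unadjusted p was not computed, so nothing is drawn from these counts. The libraries of 2 subsets did not overlap for 3, 3, and 1 of the 10 genes in the same order, where 19.1, 26.4, and 9.63% of all genes did not overlap. Without Tim-4+ replicate 1, the first count rose to 4 with edgeR, with *Il10* (0.36, adjusted p = 0.0439) and *Tgfbr1* added. Calls over all genes rose as well without that library, from 1589 to 2203. It is in neither group of this comparison and enters only through the shared fit. The SE of *Il10* was 0.145 with it and 0.111 without it. None of the 5 calls between subsets reached a 2-fold change, and with that also required both counts were 0.

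**Figure D3:**
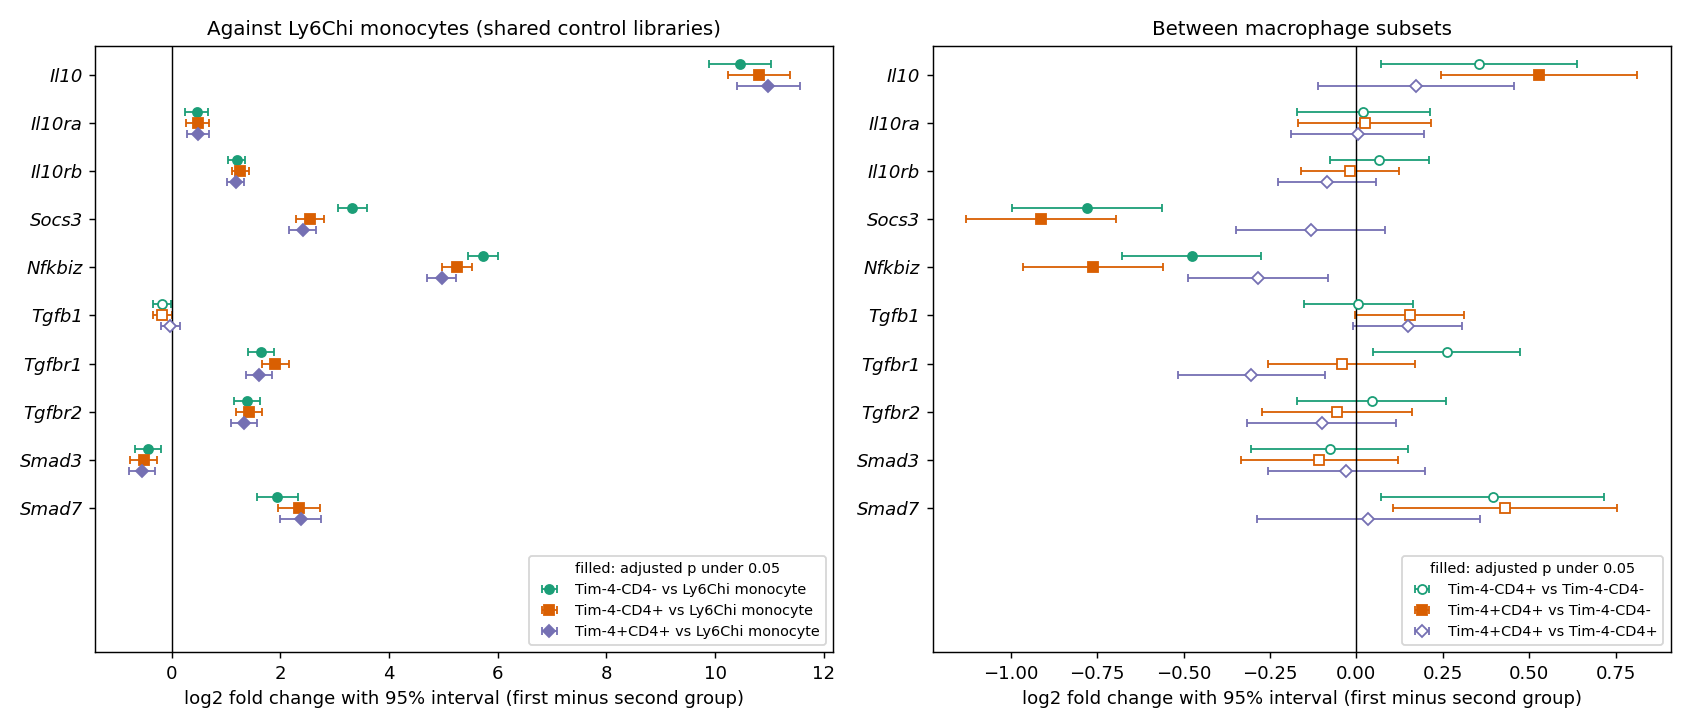
Log2 fold change (x axis) of the 10 genes (y axis), against monocytes on the left (3 comparisons that share the monocyte libraries) and between macrophage subsets on the right. Bars are 95% intervals from a normal approximation. Filled symbols passed an adjusted p of 0.05 with edgeR: all genes except *Tgfb1* on the left, and on the right *Socs3* and *Nfkbiz* in both comparisons with CD4- macrophages and *Il10* in Tim-4+ against CD4- macrophages.

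The other genes of both pathways were read from lists chosen with the 10 genes, which put 68 further genes in the test. Against monocytes, 46 rose and 15 fell in CD4- macrophages (89.7% passed), 45 rose and 14 fell in Tim-4-CD4+ (86.8%), and 43 rose and 17 fell in Tim-4+ (88.2%). The median log2 fold changes were 1.48, 1.49, and 1.32, where the medians of all genes were 0.08, 0.11, and 0.10. Between subsets, 4 rose and 13 fell from CD4- to Tim-4-CD4+ macrophages (median -0.10), 9 rose and 23 fell from CD4- to Tim-4+ (median -0.18), and 5 rose and 2 fell between the CD4+ subsets (median -0.07), where the medians of all genes were near 0. The shares that passed, of 25.0, 47.1, and 10.3%, stand beside 10.1, 23.1, and 3.41% of all genes. The lists were chosen with earlier results of these data known and were not matched to all genes by level. These shares are therefore a description and not a test of the pathways.

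The kinases and STAT3 downstream of the IL-10 receptor were lower in macrophages than in monocytes. In monocytes *Stat3*, the factor itself, was at 497 ± 48.2 CPM (SD, n = 3), and it fell to 252 ± 29.9, 227 ± 11.9, and 215 ± 28.3 CPM (SD, n = 4) in the subsets, or by 0.98, 1.13, and 1.21 on the log2 scale (adjusted p of 1.17e-06 or less from edgeR). *Tyk2* fell by 0.87, 1.02, and 0.93, and *Jak1* by 0.44, 0.42, and 0.57 (adjusted p of 0.00721 or less). In each subset these 3 of the 6 genes of the list fell, *Cish*, another inhibitor of cytokine signaling that is named here after its values were seen, rose (0.530 to between 15.2 and 18.6 CPM on average), and the other two did not pass. None of the 6 passed between subsets.

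Genes that IL-10 is known to raise in macrophages did not move as 1 group between subsets. Against monocytes, 6 of 10 rose in each subset, and 2 or 3 fell. From CD4- to Tim-4+ macrophages, 1 rose and 3 fell (median -0.29), and from CD4- to Tim-4-CD4+, 0 rose and 2 fell (median -0.29). *Cd163*, the scavenger receptor for hemoglobin complexes, was the one that rose, from 137 ± 25.8 CPM in CD4- and 191 ± 31.3 CPM in Tim-4-CD4+ to 552 ± 169 CPM in Tim-4+ macrophages (SD, n = 4), by 2.01 and 1.53 on the log2 scale (adjusted p = 1.09e-06 and 9.57e-05 from edgeR). *Il1rn*, which encodes the IL-1 receptor antagonist, went the other way, from 212 ± 29.4 to 104 ± 13.7 CPM, and fell by 1.03 (SE 0.16, adjusted p = 1.54e-04). *Ddit4*, an inhibitor of mTOR signaling, fell by 0.95 from CD4- to Tim-4-CD4+ macrophages (adjusted p = 0.00118) and rose by 0.67 from there to Tim-4+ (adjusted p = 0.0277).

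All 6 tested cytokines that IL-10 is known to repress rose from monocytes to macrophages in each subset. Compared with CD4- macrophages, the same 4 (*Il6*, *Il23a*, *Il1a*, and *Tnf*, the last named after its values were seen) fell in each CD4+ subset. The other 2 did not pass, and the medians of the 6 were -0.87 and -0.85. *Il1a* was between 48.7 to 71.8 CPM in CD4-, between 25.1 to 32 CPM in Tim-4-CD4+, and between 24.9 to 37.2 CPM in Tim-4+ macrophages, and fell by 1.21 and 1.15 on the log2 scale (adjusted p = 7.10e-05 and 3.62e-05 from edgeR). *Il6* was scarce, at 4.88 ± 1.54, 1.44 ± 0.590, and 0.927 ± 0.370 CPM (SD, n = 4), and fell by 1.74 and 2.39 (adjusted p = 0.00341 and 1.10e-04). *Il23a* was scarcer still, at 2.28 CPM on average in CD4- and under 0.7 CPM in both CD4+ subsets, and fell by 1.70 and 1.99 (adjusted p = 0.0466 and 0.0106). *Il23a* had no counts in any monocyte library. In the overnight cultures of the paper, released IL-6 protein was enriched in CD4- macrophages, while TNF protein did not differ between subsets.

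Of the other 5 genes of the IkappaB family, *Nfkbia* and *Nfkbib*, which encode cytoplasmic inhibitors of NF-kappaB, fell like *Nfkbiz* in both comparisons with CD4- macrophages, and 3 did not pass in either. *Nfkbia* was at 720.1 ± 78.5, 443 ± 115, and 422 ± 78.6 CPM (SD, n = 4) in the subsets and fell by 0.70 and 0.77 on the log2 scale (adjusted p = 0.00807 and 0.00178). *Nfkbib* fell by 0.53 and 0.49 (adjusted p = 0.0188 and 0.0148). The medians of the 5 genes were -0.41 and -0.36.

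The carriers that hold latent TGF-beta differed between subsets in both directions. Of 8 ligands and carriers, 3 rose and 2 fell from CD4- to Tim-4+ macrophages (median 0.48), 1 rose and 2 fell to Tim-4-CD4+ (median -0.17), and 2 rose and 1 fell between the CD4+ subsets (median 0.40). *Ltbp3*, a binding protein of latent TGF-beta, was at 26 ± 3.70 CPM in CD4-, 22.9 ± 4.72 CPM in Tim-4-CD4+, and 9.92 ± 0.604 CPM in Tim-4+ macrophages (SD, n = 4) and fell to the last by 1.39 and 1.21 on the log2 scale (adjusted p = 1.33e-06 and 3.30e-05 from edgeR). *Ltbp4*, of the same family, went from 5.58 ± 0.482 and 4.54 ± 0.815 to 10.3 ± 2.77 CPM, a rise of 0.89 and 1.19 (adjusted p = 0.00282 and 0.00127). *Ltbp2* rose by 1.97 and 1.79, at 0.389, 0.437, and 1.53 CPM on average (adjusted p = 0.00305 and 0.0241). The 6 mesenchymal markers, of interest because fibroblasts make these carriers, summed to between 60.5 and 92.1 CPM in CD4-, between 74.1 and 95.7 CPM in Tim-4-CD4+, and between 101 and 141 CPM in Tim-4+ macrophages. Of them 4 rose and 0 fell in Tim-4+ against CD4- macrophages, none of the 6 was at 0 in any macrophage library, and their part in the rise of *Ltbp2* and *Ltbp4* was not tested.

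Of 4 genes that free TGF-beta, *Furin*, the protease that cleaves the precursor, fell by 0.37 and 0.45 on the log2 scale in Tim-4-CD4+ and Tim-4+ against CD4- macrophages (adjusted p = 0.0188 and 0.00229). *Itgav*, the alpha chain of the integrins that release the ligand, was at 226 ± 29.4, 340.1 ± 67.1, and 262 ± 70.8 CPM (SD, n = 4) and rose by 0.59 in Tim-4-CD4+ macrophages (adjusted p = 0.0462). *Itgb8*, its partner, was at most 0.458 CPM in any library, and its fall in Tim-4+ macrophages (adjusted p = 0.0352) rests on levels near that of 3 counts, so no fold is given.

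Among the 9 other receptors of the TGF-beta and BMP families, *Bmpr1a*, a receptor for BMP ligands, rose stepwise over the subsets. It was between 0.620 to 1.60 CPM in CD4-, 1.97 to 4.93 CPM in Tim-4-CD4+, and 6.46 to 9.53 CPM in Tim-4+ macrophages, with no overlap between any pair, and at or near 0 in monocytes. The log2 fold changes were 1.64 from CD4- to Tim-4-CD4+ (SE 0.34, adjusted p = 0.00436), 1.30 from there to Tim-4+ (SE 0.32, adjusted p = 0.0316), and 2.95 over both steps (adjusted p = 1.03e-05). *Eng*, an accessory receptor, fell by 0.59 from CD4- to Tim-4+ macrophages (adjusted p = 6.08e-05) and by 0.36 from Tim-4-CD4+ (adjusted p = 0.0192), whereas *Acvrl1*, a type I receptor that works with it in endothelium, rose by 0.37 from CD4- to Tim-4+ (adjusted p = 0.00747). In all, 2 of the 9 rose and 1 fell in that comparison (median -0.04), 1 rose and 0 fell from CD4- to Tim-4-CD4+ (median 0.15), and 1 rose and 1 fell between the CD4+ subsets (median -0.03). Both *Eng* and *Acvrl1* are also expressed by endothelium. The 6 endothelial markers summed to between 118 and 145 CPM, between 191 and 239 CPM, and between 308 and 373 CPM in the 3 subsets. Most of this was *Pecam1*, which macrophages also express, and *Cdh5*, which defines endothelium and is named after its values were seen, was between 2.05 and 6.44 CPM in macrophage libraries with overlap between subsets.

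Of 11 other SMADs and co-regulators tested, *Smad6*, the inhibitor of BMP signals, rose from 4.16 ± 0.754 CPM in CD4- to 7.56 ± 1.43 CPM in Tim-4-CD4+ and 10.6 ± 1.23 CPM in Tim-4+ macrophages (SD, n = 4), by 0.86 and 1.35 on the log2 scale (adjusted p = 0.00353 and 2.52e-05 from edgeR). *Smad4*, the partner shared by TGF-beta and BMP signals, was at 101 ± 9.18 CPM in monocytes (SD, n = 3), fell in each subset by 0.82, 1.08, and 1.30, and was 0.48 lower in Tim-4+ than in CD4- macrophages (adjusted p = 0.00636). *Smad2* was between 51.3 and 61.7 CPM on average in the 4 populations. It was -0.27 against monocytes in Tim-4+ macrophages (adjusted p = 0.0243) and did not pass in the other subsets. *Skil*, a repressor of SMAD activity that TGF-beta induces, rose from 78.3 ± 12.8 CPM (SD, n = 3) to 677 ± 49.6, 684 ± 66.9, and 526 ± 86.5 CPM (SD, n = 4), and was 0.36 lower on the log2 scale in Tim-4+ than in CD4- macrophages (adjusted p = 0.0483). From CD4- to Tim-4+ macrophages, 2 of the 11 rose and 4 fell (median -0.18), against 1 and 0 to Tim-4-CD4+ (median 0.01) and 0 and 0 between the CD4+ subsets (median -0.12).

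Of 11 genes listed as ones that TGF-beta can raise, most were higher in macrophages than in monocytes. In the 3 subsets, 9, 8, and 7 were higher, and 2 were lower in each. Whether TGF-beta raises or lowers each of them in gut macrophages was not tested, so the counts do not measure its signal. *Pmepa1*, which restrains TGF-beta signaling and is named after its values were seen, went from 0.154 ± 0.144 CPM (SD, n = 3) to 126 ± 10.8, 178 ± 12.8, and 183 ± 16.2 CPM (SD, n = 4). From CD4- to Tim-4+ macrophages, 1 of the 11, *Pmepa1*, rose (0.54, adjusted p = 0.0290) and 6 fell (median -0.36), and to Tim-4-CD4+ macrophages 0 rose and 2 fell (median -0.16). *Id3* encodes an inhibitor of helix-loop-helix factors, which the paper calls responsive to TGF-beta and which BMP ligands raise. It was between 18.5 and 32.1 CPM in CD4-, 6.37 and 11.5 CPM in Tim-4-CD4+, and 5.03 and 7.04 CPM in Tim-4+ macrophages. It fell by 1.64 and 2.06 on the log2 scale (adjusted p = 4.03e-05 and 1.05e-06 from edgeR). *Itgae*, which encodes the integrin chain CD103, fell by 1.72 and 2.12 (adjusted p = 0.0448 and 0.00704). Its CD4- libraries ran from 3.21 to 24.7 CPM, and CD103 is also a marker of gut dendritic cells and T cells. The 6 dendritic cell markers summed to between 116 and 178 CPM in CD4-, 107 and 156 CPM in Tim-4-CD4+, and 103 and 137 CPM in Tim-4+ macrophages. Of these markers 0 rose and 1 fell in Tim-4-CD4+ and 0 rose and 2 fell in Tim-4+ against CD4- macrophages, *Flt3* among them, none was at 0, and their part in the fall of *Itgae* was not tested. *Ldlrad4*, another inhibitor of TGF-beta signaling, fell by 0.61 in Tim-4+ against CD4- macrophages (adjusted p = 0.0267).

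**Figure D4:**
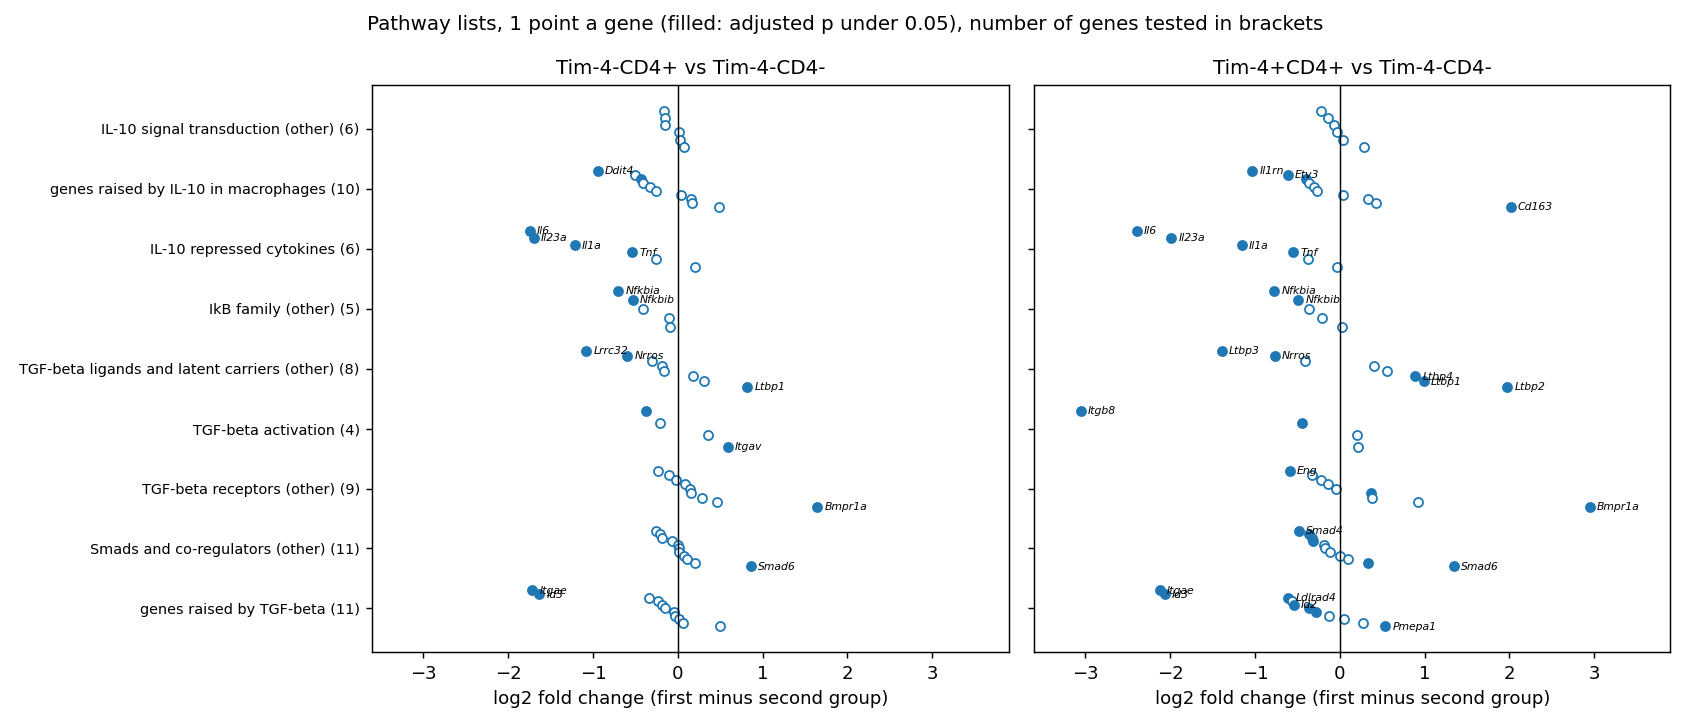
Log2 fold change (x axis) of each tested gene of 9 pathway lists (y axis), in Tim-4-CD4+ (left) and Tim-4+ macrophages (right), each against CD4- macrophages. Filled points passed an adjusted p of 0.05 with edgeR and are named where the change was at least 0.45, with 4 of 6 repressed cytokines to the left of 0 in both panels and *Bmpr1a*, *Cd163*, and *Ltbp2* farthest to the right in the second.

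*Socs3* and *Nfkbiz* are early response genes that can rise while cells are being isolated, so a list of 16 dissociation and immediate early genes was read beside them. All 16 rose in every macrophage subset against monocytes, with medians of 5.24, 5.15, and 5.02 on the log2 scale. Their summed level was between 2012 and 2222 CPM in monocytes, between 39716 and 47816 CPM in CD4-, between 33928 and 48341 CPM in Tim-4-CD4+, and between 33197 and 39514 CPM in Tim-4+ macrophages. Against CD4- macrophages, 3 of the 16 fell in Tim-4-CD4+ (median -0.17) and 6 in Tim-4+ (median -0.17), and none rose. None of the 16 was at 0 in any macrophage library, and the part of isolation in the levels of *Socs3* and *Nfkbiz* was not tested. The 3 with the largest changes were *Egr2*, *Nr4a1*, and *Egr1*, which encode transcription factors induced within minutes of a stimulus. *Egr2* fell from 196 ± 10.1 CPM to 106 ± 21 and 81.1 ± 11.7 CPM (SD, n = 4), by 0.88 and 1.27 on the log2 scale (adjusted p = 7.12e-04 and 6.89e-06 from edgeR). *Nr4a1* fell by 0.69 and 0.80 (adjusted p = 0.00557 and 7.18e-04), and *Egr1* by 0.65 in Tim-4+ macrophages (adjusted p = 0.00207).

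The same list varied within subsets. Its sum was highest in CD4- replicate 2 (47816 CPM, with the next library at 41613), in Tim-4-CD4+ replicate 3 (48341 CPM, next 37998), and in Tim-4+ replicate 3 (39514 CPM, next 36645). Of the 10 pathway genes, 6 (*Il10ra*, *Il10rb*, *Socs3*, *Nfkbiz*, *Smad3*, and *Smad7*) had the highest CPM of their subset in all 3 of these libraries, which was true of 5.95% of all genes tested. None had the lowest CPM in all 3, as 4.77% of all genes did. *Il10*, *Tgfb1*, *Tgfbr1*, and *Tgfbr2* did not share the pattern. Over all genes tested, deviations of these 3 libraries from their subset means correlated with each other, with r of 0.24, 0.184, and 0.134. They may therefore not be 3 separate observations, and whether they came from a shared sort was not tested. When these 3 libraries were left out together, an alternative chosen after seeing the data, the same counts of 9, 9, 9, and 2 genes passed in the first 4 comparisons, 4 rather than 3 passed from CD4- to Tim-4+ macrophages with *Smad7* added (0.44, adjusted p = 0.0287), and 0 passed between the CD4+ subsets.

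**Figure D5:**
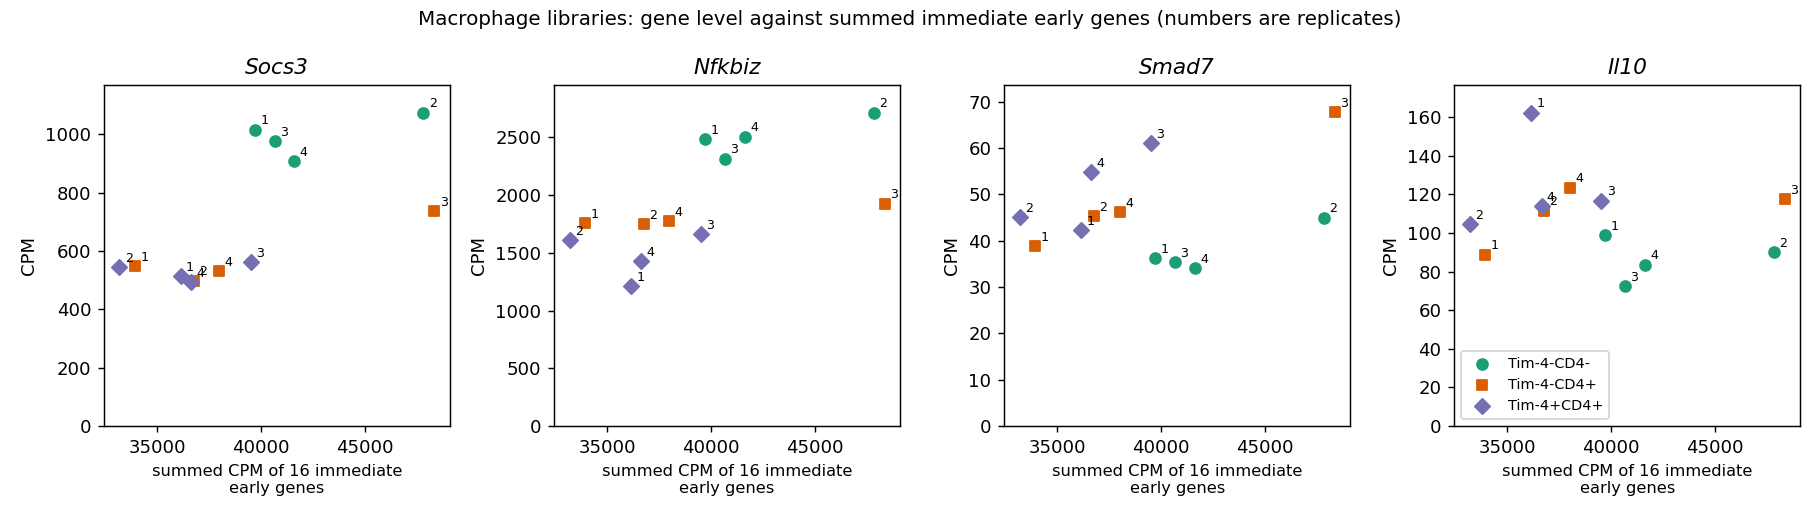
CPM of *Socs3*, *Nfkbiz*, *Smad7*, and *Il10* (y axes, linear from 0) against the summed CPM of 16 dissociation and immediate early genes (x axis) in the 12 macrophage libraries, numbered by replicate and colored by subset. In each subset the library farthest to the right has the highest *Socs3*, *Nfkbiz*, and *Smad7*, and every CD4- library has more *Socs3* and *Nfkbiz* than any library of the CD4+ subsets.

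Genes with the pattern most like these over the macrophages were sought among 11789 genes with a mean of at least 1 CPM, by Pearson's r of log2 CPM over the 12 macrophage libraries. The 12 points share 3 subsets and their preparation, so r describes mostly the order of the subsets. For *Il10* the nearest were *Pnpla7* (r = 0.96), *Galk2* (0.955), and *Pip4k2c* (0.954), for *Socs3* they were *Slc2a6* (0.986) and *Csrnp1* (0.986), and for *Nfkbiz* they were *Sowahc* (0.992), *Tm6sf1* (0.992), and *Glud1* (0.987).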

How the data were processed

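The authors made stranded mRNA libraries, trimmed reads with Trimmomatic (0.36), aligned them to GRCm38 with STAR, and deposited raw counts per gene from HTSeq (0.6.1p1), which were used here as integers. The strand setting of the counting is not given in the sources used here. A further 15 per-sample columns of normalized values in the same table, and the authors' own comparisons, were not used. Libraries were grouped by the labels. Genes were filtered with filterByExpr, scaled by TMM, and tested in R (4.3.3) with edgeR's quasi-likelihood test (4.0.16) in 1 fit over 15 libraries, with Benjamini-Hochberg adjustment within each of 6 comparisons. SE came from the same fit, and the 95% intervals were drawn from it with a normal approximation. They are narrower than edgeR's test implies. An interval that excludes 0 is therefore not a test result, and calls rest on the adjusted p alone. The script was tested on simulated data. CPM per kb used merged exon lengths from GENCODE M21 on GRCm38. Sequences came from RefSeq, where 5 of the 10 genes matched. Alternatives were DESeq2 (1.42.0), other normalizations and filters, thinning, a replicate block, a 2-fold minimum, and leaving out each library. The 10 genes and all lists were chosen with earlier results of these data known. From each list, the text names the 10 genes' transducers (*Jak1*, *Tyk2*, *Stat3*, *Smad2*, and *Smad4*) and up to 3 genes with the largest change past the threshold between subsets, and any other gene is marked as named after its values were seen. Some genes of the lists and of the similarity ranking are not reported here. Figures were drawn with matplotlib (3.10.9).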

Additional observations from a re-analysis of the deposited data

Results flagged for a closer look

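In groups of 4 libraries, the highest or lowest value was set against the rest with Dixon's criterion at the 95% level, which chance exceeds in about 1 of 20 groups. Of 30 such groups (10 genes in 3 subsets), 2 exceeded it. *Tgfbr2* was at 322.55 CPM in Tim-4+CD4+ replicate 1, with the other libraries of that subset between 444 and 469 CPM. The same library had the lowest *Tgfbr1*, *Smad3*, and *Nfkbiz* and the highest *Il10* of its subset. *Nfkbiz* was at 1924.33 CPM in Tim-4-CD4+ replicate 3, with the other libraries of that subset between 1747 and 1772 CPM. That library also had the highest summed level of the dissociation and immediate early genes among all macrophage libraries. The cause of either value was not tested.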

How the results depend on the processing

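Over 25 alternatives, 1500 results for single genes were recomputed. Of these, 1442 kept their direction and their side of the threshold, 2 lost a call, 9 gained one, and 47 changed sign, of which 0 had been called under either setting. The cause of each change was not tested. The calls lost were *Smad3* in CD4- macrophages against monocytes without monocyte replicate 3 (-0.316, adjusted p = 0.0513 from edgeR) and *Il10* in Tim-4+ against CD4- macrophages without CD4- replicate 3 (0.462, adjusted p = 0.0533). Calls were gained for *Il10* and *Tgfbr1* in Tim-4-CD4+ against CD4- macrophages without Tim-4+ replicate 1, a library in neither of those groups. The other calls gained were *Smad7* in Tim-4+ against CD4- macrophages under 7 alternatives, with adjusted p between 0.0251 and 0.0425 (edgeR or DESeq2).

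Requiring also a 2-fold change left 6034, 6681, and 6849 genes called against monocytes, 483, 1336, and 277 genes between subsets, and 0 and 0 of the 10 genes in the comparisons with CD4- macrophages. DESeq2 called 917 genes between the CD4+ subsets, where edgeR called 539. Leaving out 1 library at a time gave between 2 and 4 of the 10 genes, and between 1033 and 2203 genes in all, for Tim-4-CD4+ against CD4- macrophages (2 and 1589 with every library), with the lowest total without Tim-4-CD4+ replicate 4.

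The sign of small differences that had not passed depended on the scaling. *Tgfb1* in Tim-4+ macrophages against monocytes was -0.02 as reported, 0.03 with DESeq2 and with relative log expression, 0.094 with the upper quartile, 0.04 with genes of at least 1 CPM, 0.008 with only 2 populations fitted, 0.022 with counts thinned to the smallest library, and 0.054 without the 3 libraries highest in dissociation genes. Without those 3 it was -0.034 in Tim-4-CD4+ against CD4- macrophages. *Il10rb* in Tim-4+ against CD4- macrophages was 0.006, 0.006, 0.033, 0.012, and 0.002 with DESeq2, relative log expression, the upper quartile, at least 1 CPM, and without the 3 libraries. *Tgfbr1* in that comparison was 0 with the upper quartile, and *Il10ra* between the CD4+ subsets was -0.002 with only those fitted.

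With 1 library left out at a time, log2 fold changes on both sides of 0 were found for *Tgfb1* in Tim-4+ macrophages against monocytes (-0.052 to 0.051). In Tim-4-CD4+ against CD4- macrophages they were found for *Il10ra* (-0.037 to 0.08) and *Tgfb1* (-0.028 to 0.05). In Tim-4+ against CD4- macrophages they were found for *Il10ra* (-0.027 to 0.071), *Il10rb* (-0.036 to 0.029), *Tgfbr1* (-0.095 to 0.06), and *Tgfbr2* (-0.101 to 0.058). Between the CD4+ subsets they were found for *Il10ra* (-0.048 to 0.059), *Socs3* (-0.194 to 0.016), *Tgfbr2* (-0.147 to 0.013), *Smad3* (-0.107 to 0.07), and *Smad7* (-0.061 to 0.235).

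The replicate numbers of titles and descriptions disagree for Tim-4-CD4+ libraries. Deviations of libraries with the same number correlated with r between -0.123 and 0.134 by title (2 of 12 pairs over 0.1) and between -0.089 and 0.161 by description (4 of 12 pairs over 0.1), so the numbers were not taken as a pairing. The highest r between subsets, 0.24, was that of CD4- replicate 2 and Tim-4-CD4+ replicate 3. For the pairs among CD4- replicate 3, Tim-4-CD4+ replicate 1, and Tim-4+ replicate 2 it was 0.136, 0.135, and 0.173. For CD4- replicate 4, Tim-4-CD4+ replicate 2, and Tim-4+ replicate 4 it was 0.161, 0.128, and 0.138. For CD4- replicate 1, Tim-4-CD4+ replicate 4, and Tim-4+ replicate 1 it was 0.219, 0.058, and 0.073. These sets were chosen by their r. A sort shared by libraries of different numbers was not modelled, and the main tests treated libraries as unpaired. With the number as a replicate block, 9, 9, 9, 2, 3, and 0 of the 10 genes passed in the 6 comparisons by title and by description, and 431 and 506 genes passed between the CD4+ subsets. Upper-quartile scaling moved the median of all genes by 0.114 on the log2 scale in Tim-4+ macrophages against monocytes. Depth limited the values of *Il10* in monocytes, with 18 reads in all, and of *Itgb8*, near the level of 3 counts.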

Other observations

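Values of 4 other genes of the lists are given here, chosen after those values were seen. *Nrros* and *Lrrc32* encode membrane proteins that anchor latent TGF-beta on the cell surface. *Nrros* was at 419.8 ± 17.8 CPM in monocytes (SD, n = 3) and 281 ± 50.5, 185 ± 43.1, and 165 ± 30.3 CPM in the macrophage subsets (SD, n = 4), and fell against CD4- macrophages by 0.60 and 0.77 on the log2 scale (adjusted p = 0.0242 and 0.00217 from edgeR). *Lrrc32* fell by 1.08 from CD4- to Tim-4-CD4+ macrophages (adjusted p = 0.00453). *Ltbp1*, of the family of latent TGF-beta binding proteins, rose by 0.82 and 0.99 in both CD4+ subsets against CD4- macrophages (adjusted p = 0.00849 and 0.000895). *Etv3*, a transcriptional repressor raised by IL-10, fell by 0.43 and 0.61 in the same comparisons (adjusted p = 0.0144 and 0.000430).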
